A study of Mus musculus with 27 samples.

Results

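The genes described here are 8 transcription factors of lateral plate mesoderm: *Hand1*, *Hand2*, *Foxf1*, *Isl1*, *Nkx2-5*, *Mef2c*, *Prrx1* and *Pitx1*. They were matched by symbol to the Ensembl identifiers of the deposited tables and are 8 of the 48795 genes listed for each library. Bulk RNA was sequenced in 9 groups of mouse cells, 3 libraries per group, along a culture route from embryonic stem cells (ESC) to gonadal progenitors. The route was built to make intermediate mesoderm (IM), the tissue beside the lateral plate from which the gonad arises. The 8 genes are factors of the neighbouring lateral plate, but some are also expressed in other cell types, and cell fate was not tested. All groups derive from 1 XY ESC line (F1 of C57BL/6 and CBA, clone 7) that carries Tesco-CFP, a fluorescent reporter driven by a *Sox9* enhancer, and R26-rtTA, the doxycycline-dependent activator. ESC were held in 2i/LIF. EpiSC had spent 60 h with 20 ng/ml of Activin A, 12 ng/ml of the fibroblast growth factor bFGF and knockout serum replacement. The M group, early mesoderm, had then been exposed for 36 h to 20 ng/ml of bFGF, 10 ng/ml of the bone morphogenetic protein BMP4 and 10 μM of LY294002, an inhibitor of phosphatidylinositol 3-kinase. The IM groups had a further 3.5 days with 5 ng/ml of bFGF and 20 ng/ml of BMP4, and IM1 received nothing else. All IM groups but IM1 received 100 nM of retinoic acid (RA). IM2 and IM5 were also given 10 ng/ml of Activin A, and IM4 and IM5 were given 0.3 μM of CHIR99021, a GSK3 inhibitor that activates WNT signalling. The iSLC group, induced Sertoli-like cells, was IM3 cells infected with doxycycline-inducible lentiviruses for *Nr5a1* and *Dmrt1*. These cells were moved to a medium with doxycycline, EGF, FSH, FGF9, prostaglandin D2, testosterone and Activin A, and sorted for CFP. Virus, doxycycline, medium, added time and sorting therefore cannot be told apart in iSLC.

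Lateral plate mesoderm lies at the outer edge of the embryonic mesoderm, is specified by high BMP, and gives rise to the heart, the body wall, the limb buds and the mesoderm around the gut. HAND1 and HAND2 are basic helix-loop-helix factors of the heart, extraembryonic mesoderm and flank, FOXF1 is a forkhead factor of the gut-facing (splanchnic) layer, and ISL1 is a LIM-homeodomain factor of second heart field and hindlimb progenitors. NKX2-5 and MEF2C act in heart muscle formation, and MEF2C also in vessels and skeletal muscle. PRRX1 is a paired-type homeodomain factor of limb and body wall mesenchyme, and PITX1 is a homeodomain factor that gives the hindlimb its identity.

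Expected counts summed to 35923040 to 84876603 per library, with the lowest group median in IM3 and the highest in IM1. The 5 ESC markers summed to 656.7 to 669.1 TPM (transcript abundance scaled by transcript length and library) in ESC, and the 4 EpiSC markers to 769.0 to 783.9 TPM in EpiSC. The 5 mesoderm markers summed to 936.9 to 1026 TPM in M and to 11.3 TPM at most in IM1, against 24.3 to 25.4 TPM in IM2. Of the 5 IM markers, *Pax2* and *Pax8* had group means of 0.22 and 0.13 TPM at most in the IM groups, while *Wt1* reached 148.8 ± 14.4 TPM in IM3 (SD, n = 3). The 6 Sertoli markers summed to 306.7 to 350.6 TPM in iSLC, of which the forced genes *Nr5a1* and *Dmrt1* gave means of 93.8 and 213.2 TPM, while *Amh* stayed at 0.56 TPM. The 6 endothelial markers summed to 143.3 to 155.8 TPM in IM1, 72.2 to 95.8 TPM in the other IM groups and 27.5 to 30.1 TPM in iSLC. The 6 red blood cell markers summed to 11.7 to 91.0 TPM in ESC, M, IM3 and IM4 libraries and to 1.57 to 4.54 TPM in the others, with *Hbb-bt* at 0 in every EpiSC, IM1, IM2, IM5 and iSLC library. Summed levels were at most 9.62 TPM for the 5 neural crest markers, 51.6 TPM for the 5 neuron markers, 8.39 TPM for the 6 trophoblast markers and 27.3 TPM for the 5 skeletal muscle markers in the IM and iSLC libraries.

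RefSeq promoter sequences (GRCm38.p6) were found for 5 of the 8 genes, and 4 sequences are shown because results below bear on them. *Hand2* and the long noncoding RNA *Fendrr* have a start beside an oppositely oriented gene whose RNA was measured too, and *Isl1* and *Mef2c* took opposite courses in the last step. Each is the 250 bases before the annotated start, read 5′ to 3′ on the gene's strand, with matches to 6 motifs in capitals on either strand: TATA box (TATAAA), E-box (CANNTG), GATA site (AGATAA), forkhead site (GTAAACA), SMAD site (GGCGCC) and nuclear receptor half-site (AGGTCA). *Hand2* (chr8:57320733-57320982, + strand):
Hand2: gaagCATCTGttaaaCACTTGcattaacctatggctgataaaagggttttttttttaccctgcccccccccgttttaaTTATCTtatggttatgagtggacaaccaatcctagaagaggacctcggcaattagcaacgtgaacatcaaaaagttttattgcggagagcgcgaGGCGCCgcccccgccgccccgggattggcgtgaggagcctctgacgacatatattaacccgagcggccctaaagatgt
*Fendrr* (chr8:121083111-121083360, - strand):
Fendrr: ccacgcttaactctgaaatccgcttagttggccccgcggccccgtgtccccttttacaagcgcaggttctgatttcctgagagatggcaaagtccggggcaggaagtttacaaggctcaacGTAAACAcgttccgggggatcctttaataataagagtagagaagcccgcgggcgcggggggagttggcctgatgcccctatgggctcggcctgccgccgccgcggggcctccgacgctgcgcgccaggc
*Isl1* (chr13:116309689-116309938, - strand):
Isl1: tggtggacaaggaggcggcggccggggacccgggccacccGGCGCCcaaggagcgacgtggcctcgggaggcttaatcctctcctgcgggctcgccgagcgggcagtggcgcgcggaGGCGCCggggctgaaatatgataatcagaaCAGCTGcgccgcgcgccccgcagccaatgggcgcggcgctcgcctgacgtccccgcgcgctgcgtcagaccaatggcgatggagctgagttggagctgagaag
*Mef2c*, the first of 3 annotated starts (chr13:83503784-83504033, + strand):
Mef2c: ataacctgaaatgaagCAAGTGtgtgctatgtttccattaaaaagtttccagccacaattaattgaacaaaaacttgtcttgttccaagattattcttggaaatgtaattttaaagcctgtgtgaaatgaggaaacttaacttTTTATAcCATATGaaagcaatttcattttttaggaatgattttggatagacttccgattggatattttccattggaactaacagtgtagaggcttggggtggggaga

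The *Isl1* window had 71.2% G and C with 33 CG pairs, and the *Mef2c* window 33.6% with 1 CG pair. The *Hand2* window held 2 E-boxes, 1 GATA site and 1 SMAD site, which occur in 66.2%, 9.99% and 9.59% of 32851 RefSeq windows of the same length. The *Isl1* window held 2 SMAD sites and 1 E-box. The *Mef2c* window held 1 TATA box, a motif of 12.4% of all windows, and 2 E-boxes. The *Fendrr* window held 1 forkhead site, which occurs in 3.17% of all windows, and the nuclear receptor half-site, in 14.0% of all windows, was in none of the 4. The windows of the other *Mef2c* starts, not printed, did hold this half-site, with 1 match at the second start and 2 at the third. These are matches of letters in a window and nothing more, and the gene totals do not tell which *Mef2c* start was used. The genes themselves lie on chromosome 11 (*Hand1*, 57828705 to 57832818), 8 (*Hand2*, 57320983 to 57324633, and *Foxf1*, 121084386 to 121088144), 13 (*Isl1*, 116298281 to 116309689, *Mef2c*, 83504034 to 83667080, and *Pitx1*, 55825051 to 55836192), 17 (*Nkx2-5*, 26838664 to 26845009) and 1 (*Prrx1*, 163245119 to 163313710) of GRCm38, as annotated in GENCODE M21.

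The 8 genes together came to 4.98 ± 0.233 TPM in EpiSC, 231.0 ± 14.3 TPM in M and 606.5 ± 1.74 TPM in IM1 (SD, n = 3). IM5 followed with 572.2 ± 38.8 TPM, IM2 with 397.4 ± 12.4 TPM, IM4 with 267.3 ± 18.4 TPM and IM3 with 222.7 ± 10.5 TPM. The sum then fell to 89.3 ± 1.94 TPM in iSLC. The mix changed as well as the amount. *Hand1* made up 72.8% of the summed TPM in M, 45.9% in IM3 and 2.18% in iSLC, and *Pitx1* rose from 0.263% in M to 36.3% in IM5. In bulk RNA, fewer cells of a type and less RNA per cell cannot be told apart. All 8 genes differed over the 9 groups (edgeR quasi-likelihood F test, largest adjusted p 4.36e-11 for *Nkx2-5*), as did 96.4% of the 20839 genes tested, so that test does not set them apart.

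**Figure D1:**
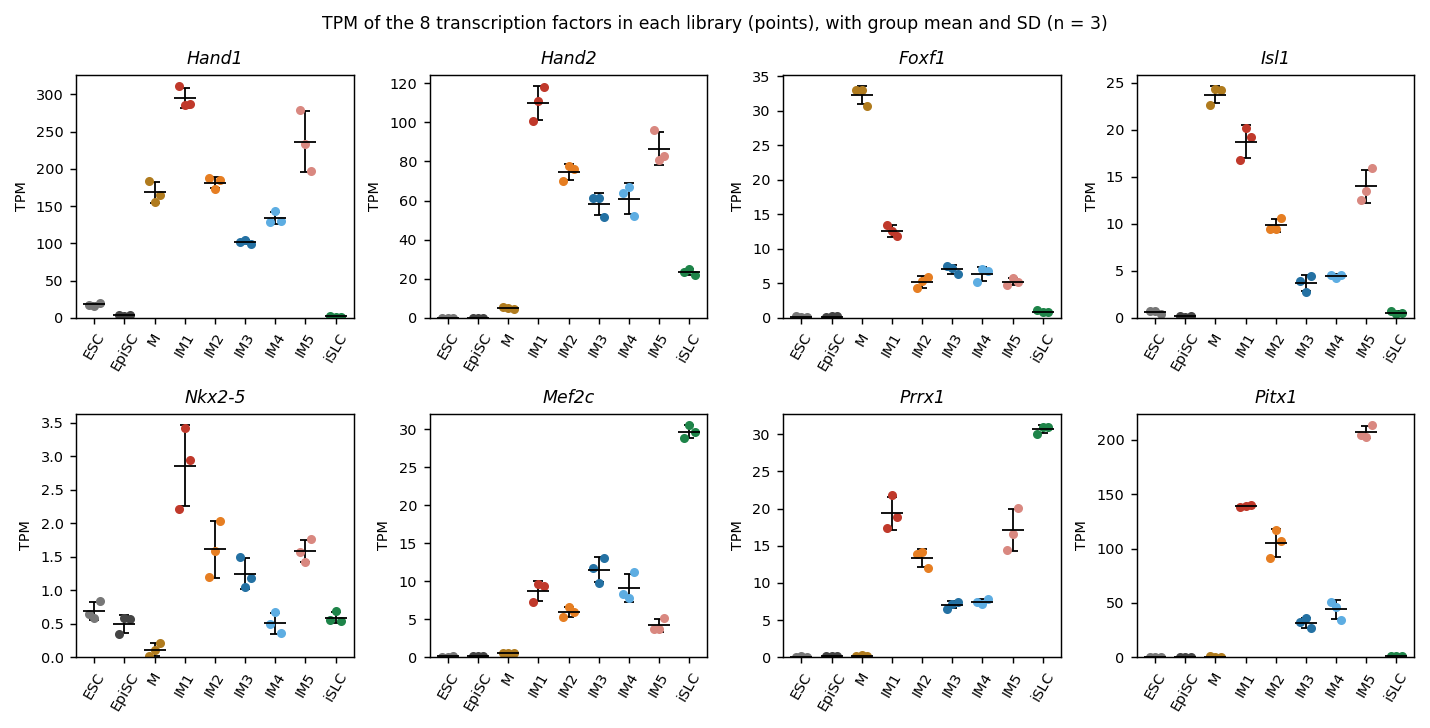
TPM of each of the 8 transcription factors (vertical axis, one panel per gene with its own scale) in the 9 groups (horizontal axis); points are the 3 libraries and bars the group mean and SD. *Foxf1* and *Isl1* were highest in M, *Hand1*, *Hand2* and *Nkx2-5* in IM1, *Pitx1* in IM5, and *Mef2c* and *Prrx1* in iSLC.

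*Hand1* was already present in ESC, at 18.01, 15.99 and 20.24 TPM, and fell in EpiSC to 3.73, 3.18 and 3.53 TPM. It reached 184.3, 156.1 and 164.9 TPM in M and 311.0, 286.2 and 287.5 TPM in IM1, its highest group. The libraries of M and IM2 (187.3, 172.8 and 184.4 TPM) overlapped, and every other pair of neighbours in the order IM1, IM5, IM2, M, IM4, IM3, ESC, EpiSC, iSLC was apart. *Hand1* in iSLC, at 2.20, 1.76 and 1.88 TPM, lay below even EpiSC.

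*Hand2*, its close relative, came later. It was at 0.05 to 0.20 TPM in the ESC and EpiSC libraries, at 5.82, 4.94 and 4.6 TPM in M, and at 100.7, 111.1 and 117.9 TPM in IM1. The ratio of *Hand1* to *Hand2* TPM was 31.6 to 35.8 in the M libraries, 2.44 to 3.09 in IM1 and 1.67 to 1.92 in IM3. In iSLC *Hand2* kept 23.5, 24.9 and 22.2 TPM while *Hand1* was at its lowest, and the ratio was 0.0706 to 0.0938. IM3 and IM4 overlapped for *Hand2*, as did ESC and EpiSC, and the other neighbours in its order did not.

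*Foxf1* and *Isl1* peaked in M. *Foxf1* measured 33.0, 33.1 and 30.7 TPM there and 13.5, 12.6 and 11.8 TPM in IM1. Its libraries in IM2 to IM5 spread from 4.28 to 7.54 TPM, with overlap between each pair of neighbours in the order IM3, IM4, IM5, IM2, and those of iSLC from 0.79 to 1.12 TPM. *Isl1* measured 22.7, 24.3 and 24.2 TPM in M and 16.8, 20.2 and 19.2 TPM in IM1. It was lower in IM3 (3.91, 2.78 and 4.5 TPM) and IM4 (4.55, 4.26 and 4.58 TPM), which overlapped, than in IM2 (9.45, 9.42 and 10.7 TPM) and IM5 (12.6, 13.5 and 16.0 TPM). *Isl1* in iSLC, at 0.71, 0.45 and 0.52 TPM, overlapped ESC. The ratio of *Foxf1* to *Isl1* was 0.330 to 0.569 in IM2 and IM5, 0.615 to 0.800 in IM1 and 1.15 to 2.59 in IM3 and IM4.

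*Pitx1* and *Prrx1*, the limb factors, were near 0 before the IM stage. *Pitx1* stood at 0.74, 0.65 and 0.44 TPM in M and at 138.4, 139.5 and 140.2 TPM in IM1, apart from M by more than the spread of either. It was highest in IM5, at 204.4, 203.1 and 213.4 TPM, and far lower in IM3 (32.0, 36.2 and 27.2 TPM) and IM4 (51.0, 46.7 and 34.2 TPM), whose libraries overlapped. In iSLC it was at 1.53, 1.35 and 1.22 TPM. *Prrx1* stood at 0.15, 0.33 and 0.10 TPM in M, at 17.4, 21.8 and 18.8 TPM in IM1, which overlapped IM5, and at 6.53, 7.10 and 7.48 TPM in IM3. Unlike *Pitx1* it was highest in iSLC, at 30.1, 31.0 and 30.9 TPM, so that the ratio of *Prrx1* to *Pitx1* was 0.196 to 0.275 in IM3 and 19.7 to 25.4 in iSLC.

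*Mef2c* had higher levels than *Nkx2-5*, the other factor of heart muscle, from M on, and lower levels in ESC and EpiSC. It stood at 0.62, 0.60 and 0.60 TPM in M, at 7.21, 9.59 and 9.32 TPM in IM1 and at 11.8, 9.75 and 13.1 TPM in IM3. Among the IM groups it was lowest in IM5 (3.76, 3.67 and 5.14 TPM), the medium in which *Pitx1* was highest, and IM1, IM3 and IM4 overlapped as neighbours. Its highest libraries were those of iSLC, at 28.9, 30.5 and 29.7 TPM. *Nkx2-5* never passed 3.42 TPM. Its 3 IM1 libraries had 2.22, 3.42 and 2.94 TPM, above all others, and its 3 M libraries 0.02, 0.11 and 0.21 TPM, below all others. These M values rest on 1, 5 and 10 expected counts, and a count of up to 3 was taken as not detectable. The ESC, EpiSC, IM4 and iSLC libraries overlapped as neighbours in its order, and so did IM2, IM3 and IM5.

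In the pairwise comparisons a gene was called differentially expressed (DE) by the study's thresholds: an adjusted p no higher than 0.01 in edgeR's quasi-likelihood test, a change of 2-fold or more, and a mean normalized count no lower than 100, both across the 27 libraries and in 1 or more of the groups compared. A normalized count is the count scaled to a common library size, without length. *Nkx2-5* had a mean of 51.6 normalized counts over all libraries, so it could not be called DE anywhere, and at most 7 of the 8 genes could. The libraries of the groups compared did not overlap in TPM for any gene called DE below. The study describes the libraries of a group as biological replicates, and the labels name no separate cultures, so p-values measure only the spread between these libraries. Several comparisons share a group, IM3 above all. Apart from the interaction of Activin A and CHIR99021, they are set side by side without a test of one against the other.

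**Figure D2:**
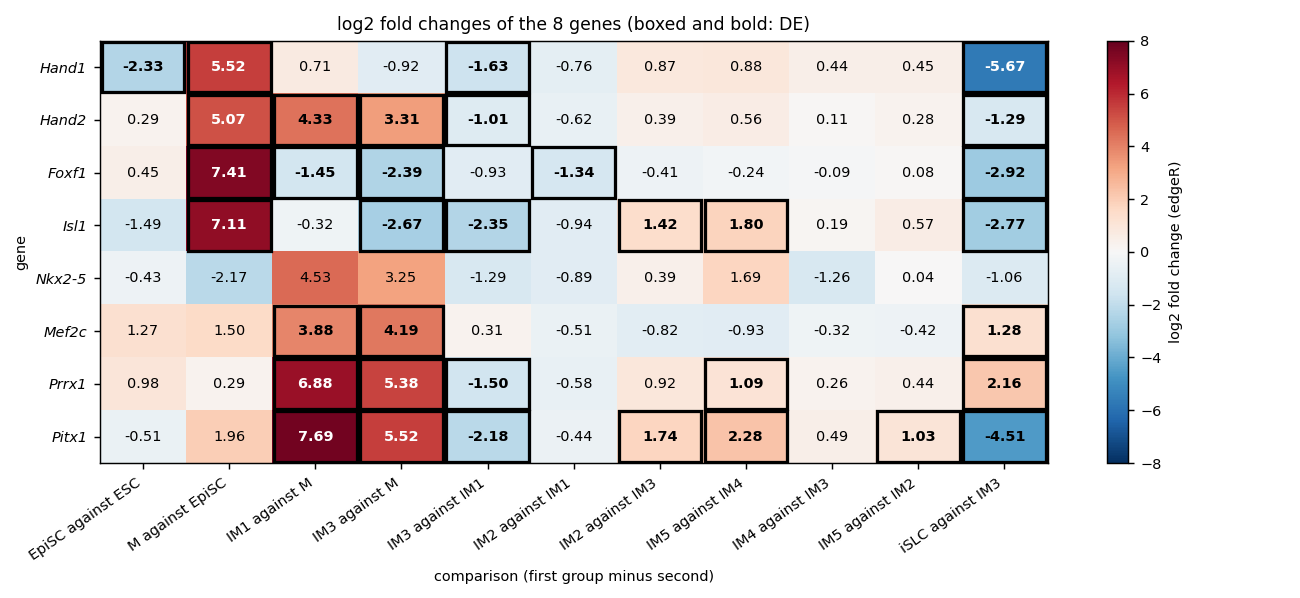
Log2 fold changes of the 8 genes (rows) in 11 comparisons (columns, first group against second) from edgeR, on a colour scale from -8 to 8; boxed bold values are DE. Reds run from *Foxf1* and *Isl1* in M to *Pitx1* and *Prrx1* in IM1 and IM3, and the iSLC column is blue for all but *Mef2c* and *Prrx1*.

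The early steps asked which of the 8 genes came on with mesoderm. From ESC to EpiSC only *Hand1* was DE, lower by a log2 fold change of -2.33 ± 0.12 (SE, n = 3 against 3, adjusted p 1.23e-14 in edgeR), against 8.07% of all genes tested that were DE in that comparison, 3.75% higher and 4.32% lower. From EpiSC to M, 4 of the 8 rose and none fell, where 6.79% of all genes rose and 7.72% fell. *Foxf1* rose by a log2 fold of 7.41 ± 0.20 (adjusted p 2.21e-21), *Isl1* by 7.11 ± 0.14 (adjusted p 2.13e-24), *Hand1* by 5.52 ± 0.13 and *Hand2* by 5.07 ± 0.24. The median log2 fold over the 8 was 3.51, and -0.06 over all genes. *Mef2c* (1.5), *Pitx1* (1.96) and *Nkx2-5* (-2.17) differed at the adjusted p but lay under the count minimum, and *Prrx1* had a log2 fold of 0.29 ± 0.28 (adjusted p 0.377). Of 28 other lateral plate factors tested, 11 rose and 2 fell, with a median log2 fold of 1.77. *Tbx20*, a T-box factor of the early heart, rose by 6.11 to 23.7 TPM. Of 12 signal genes 6 rose and 2 fell, the rises led by *Bmp5* (6.93) and *Fgf10* (6.77), ligands of the lateral plate and limb.

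In IM1, after 3.5 days with bFGF and BMP4 and no LY294002, *Pitx1*, *Prrx1*, *Hand2* and *Mef2c* were higher than in M and *Foxf1* was lower. That is 4 of the 8 that rose and 1 that fell, where 9.72% of all genes rose and 5.94% fell. *Pitx1* rose by a log2 fold of 7.69 ± 0.17 (adjusted p 3.86e-23 in edgeR), *Prrx1* by 6.88 ± 0.14, *Hand2* by 4.33 ± 0.12 and *Mef2c* by 3.88 ± 0.10, and *Foxf1* fell by 1.45 ± 0.12 on the log2 scale (adjusted p 6.75e-11). *Hand1* (0.71 ± 0.10) and *Isl1* (-0.32 ± 0.08) passed the adjusted p but not the fold. The log2 fold of *Nkx2-5* was 4.53 ± 0.36, against M libraries with 10 counts at most.

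With RA added, in IM3 against M, *Mef2c* (4.19 ± 0.10), *Hand2* (3.31 ± 0.12), *Prrx1* (5.38 ± 0.15) and *Pitx1* (5.52 ± 0.17) rose on the log2 scale. *Isl1* fell by 2.67 ± 0.09 (adjusted p 3.40e-19 in edgeR) and *Foxf1* by 2.39 ± 0.13, so 4 of the 8 rose and 2 fell, where 9.26% and 5.66% of all genes did. *Hand1* lay 0.92 ± 0.10 below M on the log2 scale, under the fold minimum. The other lateral plate factors rose with them in both media, 16 of 28 in each, while 2 fell in IM1 and 3 in IM3. *Tbx4*, the T-box factor of the hindlimb, rose most in IM1 (9.50, to 192.3 ± 20.98 TPM), and *Gata5* (7.85) and *Tbx5* (6.50), factors of the heart, most in IM3. *Mesp1*, the marker of nascent heart mesoderm, had log2 folds of -7.91 in IM1 and -8.37 in IM3. Of 16 heart muscle genes 8 rose in IM1 and 10 in IM3, and none fell. In the signal list *Fgf8* fell too, with log2 folds of -6.51 in IM1 and -10.71 in IM3.

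IM3 and IM1 differ in RA alone. Of the 8 genes 5 were lower with RA and none higher, where 6.34% of all genes were DE, 3.72% lower and 2.62% higher. *Isl1* was lower by a log2 fold of -2.35 ± 0.09 (adjusted p 3.61e-17 in edgeR), *Pitx1* by -2.18 ± 0.11 (adjusted p 1.04e-14), *Hand1* by -1.63 ± 0.10, *Prrx1* by -1.5 ± 0.09 and *Hand2* by -1.01 ± 0.10. The median over the 8 was -1.39, and 0 over all genes. *Foxf1* (-0.93 ± 0.13) missed the fold minimum and *Nkx2-5* (-1.29 ± 0.27, adjusted p 0.000215) the count minimum. *Mef2c* was the exception, at 0.31 ± 0.08 (adjusted p 0.00146). The *Hand2* call sat at the fold minimum and was lost when replicate 3 was left out (-0.89), also from IM1 alone (-0.96) or from IM3 alone (-0.94).

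The rest of the lateral plate list split in that comparison, 7 of 28 higher and 7 lower. *Tbx4*, like *Pitx1* a hindlimb factor, was lower by -5.07 ± 0.11, while *Tbx5*, its forelimb and heart counterpart, was higher by 4.44 ± 0.13 and *Tcf21*, a factor of the mesothelium, by 4.91 ± 0.23. *Tbx5* measured 20.9 to 27.4 TPM in IM3 and 1.01 to 1.10 TPM in IM1. Heart muscle genes went the other way from most of the 8 factors, with 7 of 16 higher and none lower, though 4 were higher when replicate 1 was left out. Their summed TPM was 604.7 to 929.7 in IM3 and 388.5 to 439.5 in IM1.

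Endothelial and red blood cell markers moved in that comparison too, the former 4 of 6 lower in IM3 and the latter 2 of 6 higher, as did the trend of counts with GC content (-0.412 to -0.079 on the log2 scale in IM3 libraries, 0.110 to 0.235 in IM1). The part of the marker cells in the result was not tested. With an offset for the GC trend *Isl1*, *Pitx1*, *Hand1* and *Prrx1* were still DE and *Hand2* was not (-0.69).

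RA was given together with Activin A in IM2. Against IM1 only *Foxf1* was DE, lower by -1.34 ± 0.13 (adjusted p 6.15e-09 in edgeR), where 3.51% of all genes were DE, 1.56% lower. All 8 genes had log2 folds below 0, from -0.44 for *Pitx1* to -1.34, with a median of -0.69, against 0 over all genes. All 8 passed the adjusted p. The share of all genes that did so without the fold minimum is not given, so that count does not set the 8 apart. At an unadjusted p under 0.05 there were 8530 of the 20839 genes tested, and all 8. The study's own list of lateral plate markers, *Isl1*, *Lmo2*, *Nkx2-5* and *Pecam1*, which holds 2 of the 8 genes, summed to 54.1 to 61.8 TPM in IM1, 38.3 to 44.1 TPM in IM2, 43.0 to 46.6 TPM in IM5 and 18.6 to 22.3 TPM in IM3 and IM4. The same list summed to 47.9 to 48.2 TPM in ESC, so its sum is not particular to mesoderm. *Isl1* and *Nkx2-5* had means of 0.64 and 0.69 TPM in ESC, so most of that sum came from *Lmo2* and *Pecam1*.

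Activin A on top of RA was given without CHIR99021 (IM2 against IM3) and with it (IM5 against IM4). *Pitx1* and *Isl1* were higher with Activin A in both. Without CHIR99021, *Pitx1* was higher by a log2 fold of 1.74 ± 0.11 (adjusted p 2.35e-12 in edgeR) and *Isl1* by 1.42 ± 0.09 (adjusted p 3.63e-12), so 2 of the 8 were higher and none lower, where 3.8% of all genes were DE, 2.46% higher and 1.34% lower. With CHIR99021, *Pitx1* was higher by 2.28 ± 0.11 (adjusted p 1.04e-14), *Isl1* by 1.8 ± 0.09 (adjusted p 1.28e-14) and *Prrx1* by 1.09 ± 0.09, 3 of the 8, where 4.09% of all genes were DE, 2.63% higher and 1.46% lower. *Hand1* differed by 0.87 ± 0.10 and 0.88 ± 0.10, past the adjusted p and short of the fold minimum, which it passed with CHIR99021 when replicate 3 of IM5 was left out (1.01). *Prrx1* without CHIR99021 was at 0.92 ± 0.09, and passed the minimum when replicate 3 was left out (1.01) or with the GC offset (1.01). *Mef2c* pointed the other way in both, at -0.82 ± 0.08 and -0.93 ± 0.08, short of the fold minimum, which it passed with CHIR99021 under an offset for effective length (-1.07). *Foxf1* missed the adjusted p in both (-0.41 ± 0.14 and -0.24 ± 0.14).

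Of the other lateral plate factors, 6 of 28 were higher and 4 lower with Activin A in each of these comparisons. *Tbx4* was higher in both, by 2.15 ± 0.11 without and 2.81 ± 0.10 with CHIR99021, as were *Foxf2*, the paralogue of *Foxf1* (2.04 and 2.14), and *Osr1*, a zinc finger factor of lateral and intermediate mesoderm (1.92 and 2.33). Heart muscle genes were lower, 8 and 7 of 16, among them the myosin genes *Myh6* (-3.29 and -3.93) and *Myl7* (-2.02 and -2.96). Of 5 mesoderm markers 3 were higher with Activin A in each comparison, and their sum was 21.6 to 25.4 TPM with it and 1.79 to 2.44 TPM without. *Wt1* had a mean of 29.7 TPM in IM2 and 18.1 TPM in IM5, against 148.8 TPM in IM3 and 116.3 TPM in IM4. The summed TPM of the red blood cell markers was 1.62 to 3.04 with Activin A and 21.3 to 74.4 without, and the GC trend -0.095 to 0.430 and -0.412 to -0.079. The part of these markers' cells in the result was not tested. With the GC offset the calls of *Pitx1* and *Isl1* held in both.

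CHIR99021 was added to RA without Activin A (IM4 against IM3) and with it (IM5 against IM2). Without Activin A, edgeR called none of the 8 genes, and DESeq2 none, where 0.101% of all genes were DE. At an unadjusted p under 0.05 there were 5 of the 8, and 2517 of all 20839 genes tested, with *Hand1* at 0.44 ± 0.10 (adjusted p 0.0111), *Pitx1* at 0.49 ± 0.11 (adjusted p 0.0136) and *Nkx2-5* at -1.26 ± 0.31 (adjusted p 0.0286). With Activin A *Pitx1* alone was DE, higher by 1.03 ± 0.11 (adjusted p 3.50e-07), where 0.235% of all genes were DE, 0.0432% higher and 0.192% lower. That call sat at the fold minimum and was lost without replicate 1 (0.90), without replicate 1 of IM2 alone (0.93) and with the GC offset (0.91). The log2 folds of *Isl1* (0.57 ± 0.08), *Hand1* (0.45 ± 0.10), *Prrx1* (0.44 ± 0.08) and *Mef2c* (-0.42 ± 0.08) passed the adjusted p and not the fold.

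Heart muscle genes moved with CHIR99021 too, 7 of 16 lower without Activin A and 6 of 16 lower with it, none higher. The former count was 2 without replicate 1 of both groups and 3 without replicate 1 of IM3 alone. The atrial light chain gene *Myl7* had log2 folds of -1.51 ± 0.22 without and -2.45 ± 0.27 with Activin A, and *Myh6* of -2.17 ± 0.27 and -2.81 ± 0.40.

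Whether CHIR99021 acted differently with Activin A present was tested as the interaction. The same contrast compares the Activin A differences with and without CHIR99021. EdgeR called 0 of the 8 genes and DESeq2 0, where 0.0336% of all genes were DE (0.0096% above 0 and 0.024% below), and 3 of the 8 had an unadjusted p under 0.05. These were *Pitx1* (0.54 ± 0.15, adjusted p 0.130), *Isl1* (0.39 ± 0.13, adjusted p 0.252) and *Nkx2-5* (1.3 ± 0.41, adjusted p 0.208), and 2191 of the 20839 genes tested had such a p. The log2 fold for CHIR99021 was 0.49 without and 1.03 with Activin A for *Pitx1*, 0.19 and 0.57 for *Isl1*, and -1.26 and 0.04 for *Nkx2-5*. *Prrx1*, called for Activin A only where CHIR99021 was present, had an interaction of 0.17 ± 0.12 (adjusted p 0.651 in edgeR). For *Hand1* the interaction was 0.01 ± 0.14 (adjusted p 1.00).

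**Figure D3:**
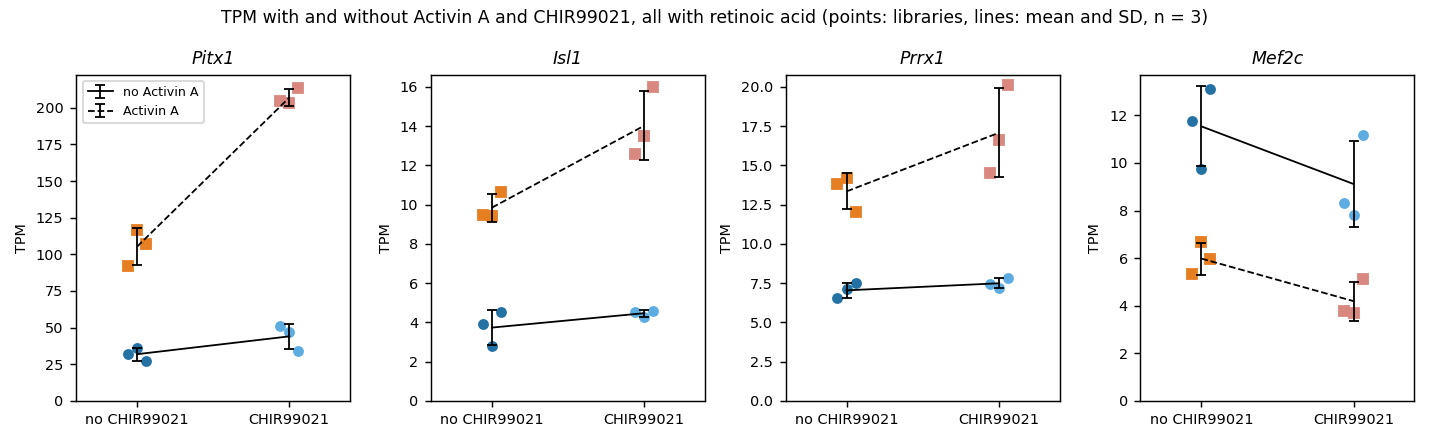
TPM (vertical axis) of *Pitx1*, *Isl1*, *Prrx1* and *Mef2c* without and with CHIR99021 (horizontal axis), without Activin A (circles, solid line) and with it (squares, dashed line); points are libraries and lines join group means with SD (n = 3), all in RA. The Activin A libraries lie above the others for the first 3 genes and below them for *Mef2c*.

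The step from IM3 to iSLC split the 8 genes. *Hand1*, *Pitx1*, *Foxf1*, *Isl1* and *Hand2* fell and *Prrx1* and *Mef2c* rose, 5 and 2 of the 8, where 8.92% of all genes fell and 10.3% rose. *Hand1* was lower by a log2 fold of -5.67 ± 0.14 (adjusted p 1.40e-22 in edgeR), *Pitx1* by -4.51 ± 0.15 (adjusted p 1.45e-19), *Foxf1* by -2.92 ± 0.17, *Isl1* by -2.77 ± 0.13 and *Hand2* by -1.29 ± 0.11 (adjusted p 2.88e-11). *Prrx1* was higher by 2.16 ± 0.09 (adjusted p 1.27e-17) and *Mef2c* by 1.28 ± 0.08 (adjusted p 2.60e-14). *Nkx2-5* was lower by -1.06 ± 0.30 (adjusted p 0.00266) and under the count minimum. All 7 calls held under DESeq2, with the GC offset and without any one library.

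The related genes split too, 3 of 28 other lateral plate factors rising and 11 falling. *Osr1* rose by 3.18 ± 0.18, *Tcf21* by 1.67 ± 0.16 to 59.7 ± 3.98 TPM and *Mef2a*, a paralogue of *Mef2c*, by 1.29 ± 0.05. *Msx1*, a homeodomain target of BMP, fell by 5.50 ± 0.15 and *Irx4*, a ventricular factor, by 5.50 ± 0.30. Of 12 signal genes 6 fell and none rose, led by *Wnt2*, a ligand of splanchnic mesoderm, at -7.37 ± 0.13 (47.4 to 48.5 TPM in IM3 and 0.24 to 0.37 TPM in iSLC). Heart muscle genes fell in 9 of 16 and rose in none, although *Mef2c* rose, and *Tnnt2* had 126.9 to 131.6 TPM in iSLC and 53.3 to 85.2 TPM in IM3. Endothelial markers fell in 5 of 6 and rose in 1, and the 6 red blood cell markers summed to 1.65 to 2.18 TPM in iSLC. The endothelial receptor *Kdr* went from 18.8 to 0.717 TPM. The part of these cells, and of the CFP sort, in the result was not tested.

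**Figure D4:**
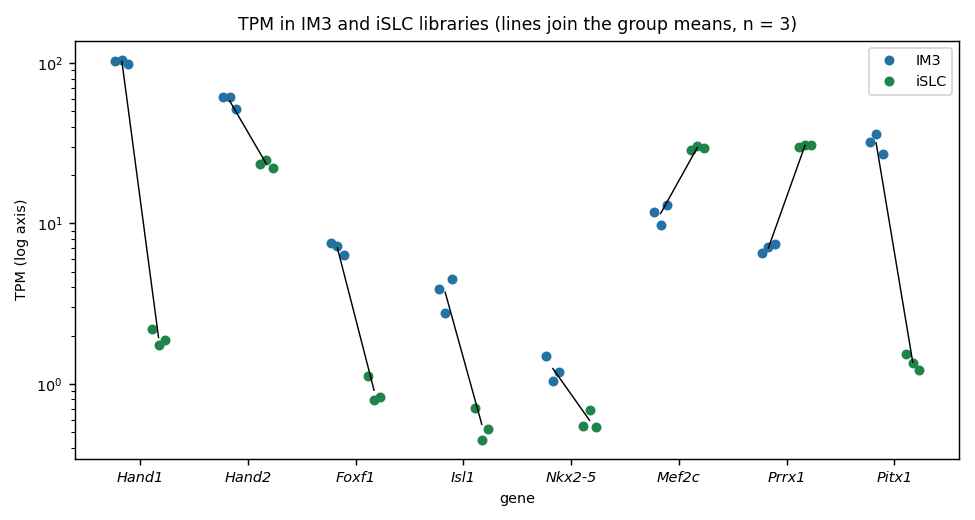
TPM on a log axis (vertical) of the 8 genes (horizontal) in the 3 IM3 and the 3 iSLC libraries; points are libraries and lines join the group means. *Hand1* goes from 102.2 to 1.95 TPM and *Pitx1* from 31.8 to 1.37 TPM, while *Prrx1* goes from 7.04 to 30.7 TPM and *Mef2c* from 11.5 to 29.7 TPM.

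*Hand2* and *Foxf1* each have a long noncoding RNA starting nearby on the opposite strand. *Hand2os1* starts 3250 bases from *Hand2* in GENCODE and covers 19.61% of the *Hand2* exon bases on the other strand, while RefSeq puts its start inside the *Hand2* window printed above. Since it is not stated whether the counting used strand, reads from the overlapping bases cannot be told apart. *Hand2os1* was listed at 0 in all ESC libraries and had 1.9 to 2.99 TPM in M, 20.8 to 22.2 TPM in IM1 and 10.95 to 14.70 TPM in IM3. Against M it rose by a log2 fold of 2.99 ± 0.17 in IM1 (adjusted p 4.23e-14 in edgeR) and 2.20 ± 0.17 in IM3, where *Hand2* rose by 4.33 and 3.31. In iSLC *Hand2os1* kept 10.5 to 11.2 TPM, a log2 fold of -0.45 ± 0.15 that was not DE, where *Hand2* fell by 1.29.

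*Fendrr* starts 1276 bases from *Foxf1* and shares no exon bases with it. It had 6.24 to 6.95 TPM in M, 2.09 to 2.30 TPM in IM1, 0.68 to 1.4 TPM in IM3, 0.36 to 0.43 TPM in IM2 and 0.03 to 0.16 TPM in iSLC. Like *Foxf1* it was highest in M and next in IM1. Its mean of 79.7 normalized counts kept it under the count minimum, and its log2 folds were -1.61 ± 0.22 in IM1 against M (*Foxf1* -1.45), -2.48 ± 0.26 in IM2 against IM1 (*Foxf1* -1.34) and -3.62 ± 0.38 in iSLC against IM3 (*Foxf1* -2.92), each past the adjusted p. A miRNA gene inside *Foxf1* on the other strand, *Gm27530*, was listed at 0 in all 27 libraries. It is 98 bases long, and so short a transcript may escape these libraries. The 0 therefore does not tell whether it was expressed. *Gm28760* shares 4.07% of the *Pitx1* exon bases on the same strand.

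**Figure D5:**
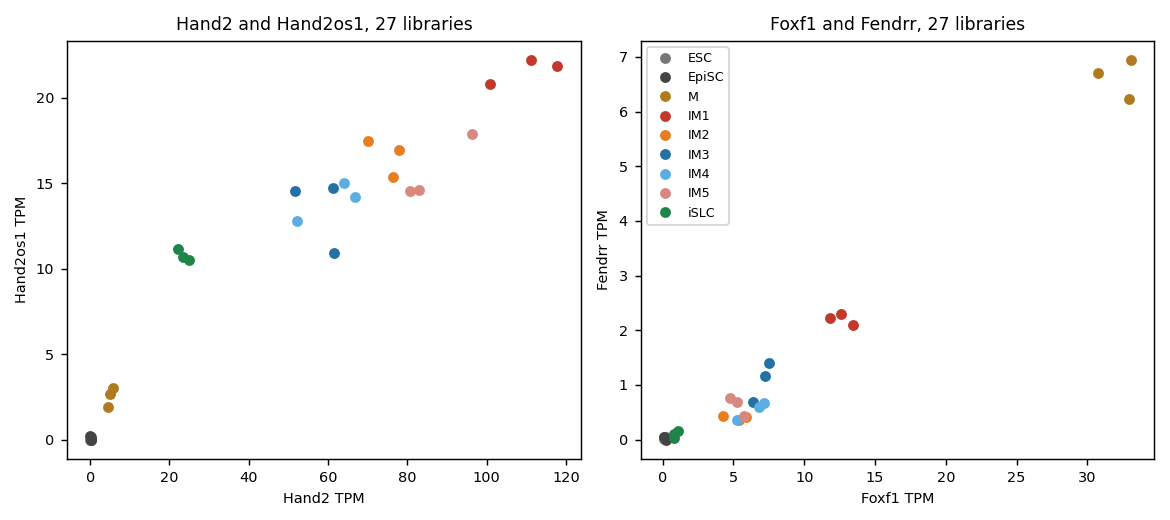
TPM of *Hand2os1* against *Hand2* (left) and of *Fendrr* against *Foxf1* (right) in 27 libraries, coloured by group. IM1 holds the highest *Hand2os1* and *Hand2* values and M the highest *Fendrr* and *Foxf1* values, and iSLC lies at 10.5 to 11.2 TPM of *Hand2os1*.

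The 8 genes did not share a course. Over the 27 libraries Pearson's r of log2(TPM + 1) was 0.911 for *Foxf1* and *Isl1*, 0.907 for *Mef2c* and *Prrx1*, 0.901 for *Hand1* and *Isl1* and 0.899 for *Hand2* and *Pitx1*, and as low as 0.0787 for *Hand1* and *Mef2c*. Over the 15 IM libraries alone r was 0.978 for *Isl1* and *Prrx1* and 0.939 for *Hand1* and *Isl1*, while *Mef2c* ran against *Pitx1* (-0.792). *Mef2c* and *Prrx1*, together over all groups, had r of -0.544 within the IM libraries. The libraries fall into groups, so these values describe the pattern and are given with no test.

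The protein-coding genes most like each factor, among 12179 with a group mean of at least 5 TPM, were found by the same r over the 27 libraries. *Foxf1* ran closest to *Kdr* (0.963), the VEGF receptor of endothelial and early lateral mesoderm, which went from 58.4 TPM in M to 38.4 in IM1 and 0.717 in iSLC, and then to *Efna1* (0.951) and *Rasgrp3* (0.949). *Isl1* ran closest to *Msx2* (0.972), a homeodomain target of BMP, and also to *Acvr1b* (0.953), an activin receptor. *Pitx1* ran closest to *Ihh* (0.987), a hedgehog ligand at 7.05 TPM in IM5 and 0.553 TPM in iSLC, *Tmod1* (0.984) and *Prkg2* (0.983). *Prrx1* ran with *Cald1* (0.991), which binds actin, *Arhgap31* (0.990) and *Rhoj* (0.990), and *Mef2c* with *S1pr3* (0.985), a sphingosine phosphate receptor at 115.0 TPM in iSLC, *Cd302* (0.979) and *Pcdhb17* (0.978). *Hand2* ran with *Clic1* (0.991), *Igf2r* (0.990) and *Tmem119* (0.989), *Hand1* with *Arid3a* (0.978), *Tmprss2* (0.966) and *Nipsnap3b* (0.958), and *Nkx2-5* less closely with *P2ry2* (0.913), *Pi16* (0.913) and *Sin3b* (0.910). Of the 24 genes found in this way 7 were also found with Spearman's rho.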

How the data were processed

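Per the paper's methods and the labels' processing notes, the authors trimmed paired reads with cutadapt 1.9.1, aligned them to GRCm38 (Ensembl annotation) with STAR 2.5.2a and estimated abundance with RSEM 1.3.0. They deposited expected counts (estimated fragments per gene, not normalized) and TPM and FPKM, both scaled by length and library. FPKM served only as an alternative. Whether counting used strand is not given in the sources used here. Names and coordinates came from GENCODE M21 (GRCm38), which matched 99.26% of 48795 genes. Expected counts were rounded, filtered with filterByExpr (20839 genes kept) and fitted with edgeR 4.0.16 (R 4.3.3): TMM factors, and one quasi-likelihood model with a coefficient per group for 27 libraries. P-values were adjusted by Benjamini-Hochberg over all genes tested. SE is the log2 fold change divided by the square root of F. A floor of 3 counts covers counting error only. Likeness used log2(TPM + 1). The steps were tested on simulated data. DESeq2 1.42.0 and limma 3.58.1 served as alternatives, with other scalings, offsets, filters and thresholds, a replicate block and left-out replicates. Each library left out alone, and the alternatives for other lists, were added after seeing the data. The 8 genes, the lists and the rules for named genes (the 3 largest rises and falls among DE list genes, divergent partners within 5000 bases, the 3 most alike genes) were chosen with earlier results of these data known. Replicate numbers come from the labels. Only for IM3 and IM4, among the pairs of groups compared, did every same-numbered pair deviate together with r over 0.1 (0.246 to 0.344), and the block changed no call there. For M and IM3 these r were 0.0971 to 0.152. Replicates differed beyond sampling noise (chi-square per degree of freedom at least 4.14). Promoters of *Hand1*, *Foxf1* and *Pitx1* were not analysed here. One of the most alike genes is not reported here.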

Additional observations from a re-analysis of the deposited data

How the results depend on the processing

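Over 2064 alternative values of the 96 log2 fold changes of the 8 genes, 2016 lay on the same side of the DE thresholds, 11 lost the DE call, 37 gained it and 0 turned a call around. In 30 of the 2016 the sign changed with no DE call in either fit. Without the count minimum 3 of the 8 genes were DE in EpiSC against ESC and 7 in M against EpiSC. Without the fold minimum 7 were DE in IM2 against IM1, 6 in IM2 against IM3, 6 in IM5 against IM4 and 5 in IM5 against IM2. Shares of all genes at these loosened thresholds are not given, so the counts do not set the 8 apart. An unadjusted edgeR p under 0.05 was held by 13169 of 20839 genes in EpiSC against ESC and 14842 in M against EpiSC. Such a p was held by 8530 in IM2 against IM1, 9941 in IM2 against IM3, 11036 in IM5 against IM4 and 4586 in IM5 against IM2. At the full thresholds, the count of DE genes among the 8 in IM5 against IM2 was 0 with the GC offset. It was also 0 with the replicate block and GC offset together and 0 with limma on log2(TPM + 1). It was 0 to 1 with a replicate or library left out. With replicates or libraries left out the count was 4 to 5 in IM3 against IM1, 2 to 3 in IM2 against IM3 and 3 to 4 in IM5 against IM4, and in the other comparisons it did not move. The low values of *Nkx2-5* and the fold minimum were the limits met most. A most alike gene counted as found again if it lay in a longer list than the 3 most alike of its factor. By that rule 7 of the 24 were found again with Spearman's rho, and 22 to 24 with a replicate left out.

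Same-numbered libraries of different groups deviated by a correlation of 0.0241 on average and differently numbered ones by -0.0122, and in 2 of 36 pairs of groups every same-numbered pair was over 0.1. Deviations were taken from each group's own mean, so the second average largely follows from the first and is no separate comparison. With the replicate block the counts of DE genes among the 8 were the same as without it in all comparisons, for example 5 in IM3 against IM1 and 0 in IM4 against IM3.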
